A study of Mus musculus with 2 samples.

Results

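Apical constriction and actin closure genes are followed here in single cells of mouse embryonic brain tissue. They are 10 genes, Shroom3, Shroom2, Enah, Vcl, Marcks, Rock1, Rock2, Myh10, Cobl and Arhgap35, matched by symbol among the 32285 genes of the files. All 10 were found. The NTD library came from embryos with neural tube defects, whose dams ate a low-folate diet and were injected intraperitoneally with 1.5 mg/kg of MTX (methotrexate, a folate antagonist) at gestational day 7.5. The control library came from embryos of the normal group, labelled with normal saline as the treatment, and the sources used here do not state the diet of those dams. Closure was watched at E9.5 to E10.5, and the NTD embryos were delayed, small and mainly showed malformed hindbrains and spina bifida. The sources used here do not state the strain, nor how many embryos of which stage and sex were pooled. Each group had 1 library, so no difference below has a replicate check, no test across samples exists, and every interval is a 95% interval of counting error only.

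The neural plate bends into a tube when neuroepithelial cells narrow their apical ends. Shroom proteins bind apical actin at the junctions, where kinases switch on non-muscle myosin and the actin belt contracts. Other proteins build the actin network that the belt pulls on, or tie it to junctions and matrix. Loss of each of several of these genes, Shroom3, Vcl, Marcks and Arhgap35 among them, is known to leave the cranial neural tube of mice open.

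Among the 10 genes, Vcl had the largest difference between the libraries in neural progenitor-like cells, and its promoter is shown for that reason. Vcl encodes vinculin, which links actin to adherens junctions and focal adhesions. The gene lies at chr14:20929398-21033676 on the plus strand of GRCm38. The 250 bases before its start, chr14:20929148-20929397, were read from the RefSeq promoter table of GRCm38.p6, and the capitals mark a CArG box, the site bound by serum response factor, 227 bases before the start.

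Vcl upstream: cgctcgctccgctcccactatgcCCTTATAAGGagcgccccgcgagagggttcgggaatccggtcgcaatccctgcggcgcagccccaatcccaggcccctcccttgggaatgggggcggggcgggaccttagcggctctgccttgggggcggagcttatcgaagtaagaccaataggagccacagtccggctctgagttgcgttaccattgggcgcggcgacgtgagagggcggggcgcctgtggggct

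CArG boxes were searched on both strands, which read alike, in the 250 bases before the start of each gene. Of the 10 genes, 8 matched a promoter entry, and Vcl was the only gene of the 8 with a box. It was found in 439 of 27025 genes with an entry (1.62%), and in 6 of 98 matched genes of the pathway lists (6.12%). The 30-base windows around the boxes of Vcl and those 6 genes are given 5′ to 3′ on the gene's strand, with the box in capitals, because their levels can be set side by side. They are at chr14:20929161-20929190 (plus strand) for Vcl, chr11:120348566-120348595 (minus) for Actg1, chr14:45530250-45530279 (minus) for Fermt2, chr15:99820177-99820206 (minus) for Lima1, chr10:128493040-128493069 (minus) for Myl6, chr2:156775293-156775322 (plus) for Myl9 and chr2:51149192-51149221 (minus) for Rnd3.

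Vcl: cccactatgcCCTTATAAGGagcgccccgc
Actg1: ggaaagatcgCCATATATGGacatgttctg
Fermt2: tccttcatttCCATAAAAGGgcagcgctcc
Lima1: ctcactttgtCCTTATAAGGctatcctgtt
Myl6: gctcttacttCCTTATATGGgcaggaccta
Myl9: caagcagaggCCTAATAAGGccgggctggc
Rnd3: ctcccaggctCCATAAAAGGggaggaggcg

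The genes with such a box did not share a direction in neural progenitor-like cells. Vcl went from 65.2 CPM in control to 37.0 CPM in NTD cells, and its log2 ratio of NTD over control was -0.82 (-1.002 to -0.63). Myl6, a myosin light chain, went from 493 to 620.4 CPM, with a log2 ratio of 0.33 (0.27 to 0.39). Rnd3 was at 95.3 and 117 CPM (0.30, 0.17 to 0.44). The other 4 had log2 ratios from -0.18 for Lima1 to 0.15 for Myl9. CPM stands throughout for counts per 1000000 UMIs of the same cells, and a UMI is 1 counted RNA molecule. A match of letters is no evidence of binding, and its absence from this window shows nothing about the factor.

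The libraries held 18572 control and 19056 NTD barcodes with 50741121 and 55524355 UMIs, and 15253 and 15491 cells were kept after doublets were removed. A barcode sequence was shared by both libraries in 105 cases. Classes were named from marker genes by a rebuilt clustering that did not use the 10 genes or the pathway lists. Neural progenitor-like cells, whose 5 clusters each passed 3 to 6 of 11 progenitor markers, numbered 2629 in the control library (17.2% of kept cells, 6728653 UMIs) and 4997 in the NTD library (32.3%, 14586371 UMIs). Not all kept cells were brain cells by their genes. Cluster 8, led by Wt1 and Gata4, held 1301 control and 73 NTD cells. Liver or yolk sac-like cells numbered 144 and 2, and cluster 25, led by muscle genes, 77 and 3. Clusters 1 and 3 stayed unnamed and had the fewest UMIs per cell, a median of 1125.5 over 2762 control cells and 1726 over 2517 NTD cells. In cluster 1, which held 2460 of these NTD cells, erythroid and neural progenitor markers tied at 5 each, and the top 10 genes were histone genes. In cluster 3 erythroid and liver or yolk sac markers tied at 4 each. The level in these low-UMI clusters is given beside the results, and whether they hold free RNA or progenitor cells was not tested.

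The question put first was where each gene was expressed. Shroom3 (chr5:92683435-92965318, plus strand, GRCm38), the adaptor that starts apical constriction, was highest in neural progenitor-like cells among the named classes of both libraries, at 361 CPM (347 to 375) in the control and 317 CPM (308 to 327) in the NTD library. Epithelium-like cells followed at 229 and 236 CPM, and this step did not overlap in either library. Neuron-like cells were at 47.5 and 40.4 CPM, and endothelium-like cells were lowest at 26.3 and 29.4 CPM. Progenitor-like and then epithelium-like cells thus led in both libraries, while the interval of endothelium-like cells overlapped that of the next class in each. Unnamed cluster 14, led by Trpm3, Mitf and Bmp6, was above the progenitor-like class, at 692 CPM in 218 control cells and 450.4 CPM in 682 NTD cells. In the low-UMI clusters Shroom3 was at 28.2 and 22.8 CPM, so the progenitor-like level was 12.8-fold and 13.95-fold above them.

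Cells between progenitors and neurons had intermediate Shroom3. Cluster 10, in which neuroblast and neuron markers tied, was at 136 CPM in 613 control cells and 85.5 CPM in 518 NTD cells. From progenitor-like to neuron-like cells the log2 difference of Shroom3 was -2.92 (-3.13 to -2.72) in control and -2.97 (-3.16 to -2.80) in NTD cells. Of the 10 genes, 4 were lower and 1 was higher in neuron-like cells of the control library past the fold limit, a log2 difference of 0.32 in size. There 36.6% of 15070 measured genes were lower and 22.3% higher. In NTD cells 3 were lower and 0 higher, against 32.4% and 21.3% of 16005 genes. The lower genes were Shroom3, Shroom2 and Cobl in both libraries, and Myh10 in the control library, where it was at the limit with 1.251-fold.

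Shroom2, a relative of Shroom3 on the X chromosome (chrX:152609509-152769465, minus strand), known for a role in endothelial cell contractility, had another pattern. It was highest in endothelium-like cells, at 392 CPM in the control and 367 CPM in the NTD library, and the next named class did not overlap with it in either library. Progenitor-like cells had 34.8 CPM (30.5 to 39.5) and 30.4 CPM (27.6 to 33.3). The endothelium-like level was therefore 3.49 log2 units (3.27 to 3.72) above the progenitor-like level in control and 3.59 (3.38 to 3.81) in NTD cells. Shroom3 differed the other way between the same classes, by -3.75 and -3.41.

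**Figure D1:**
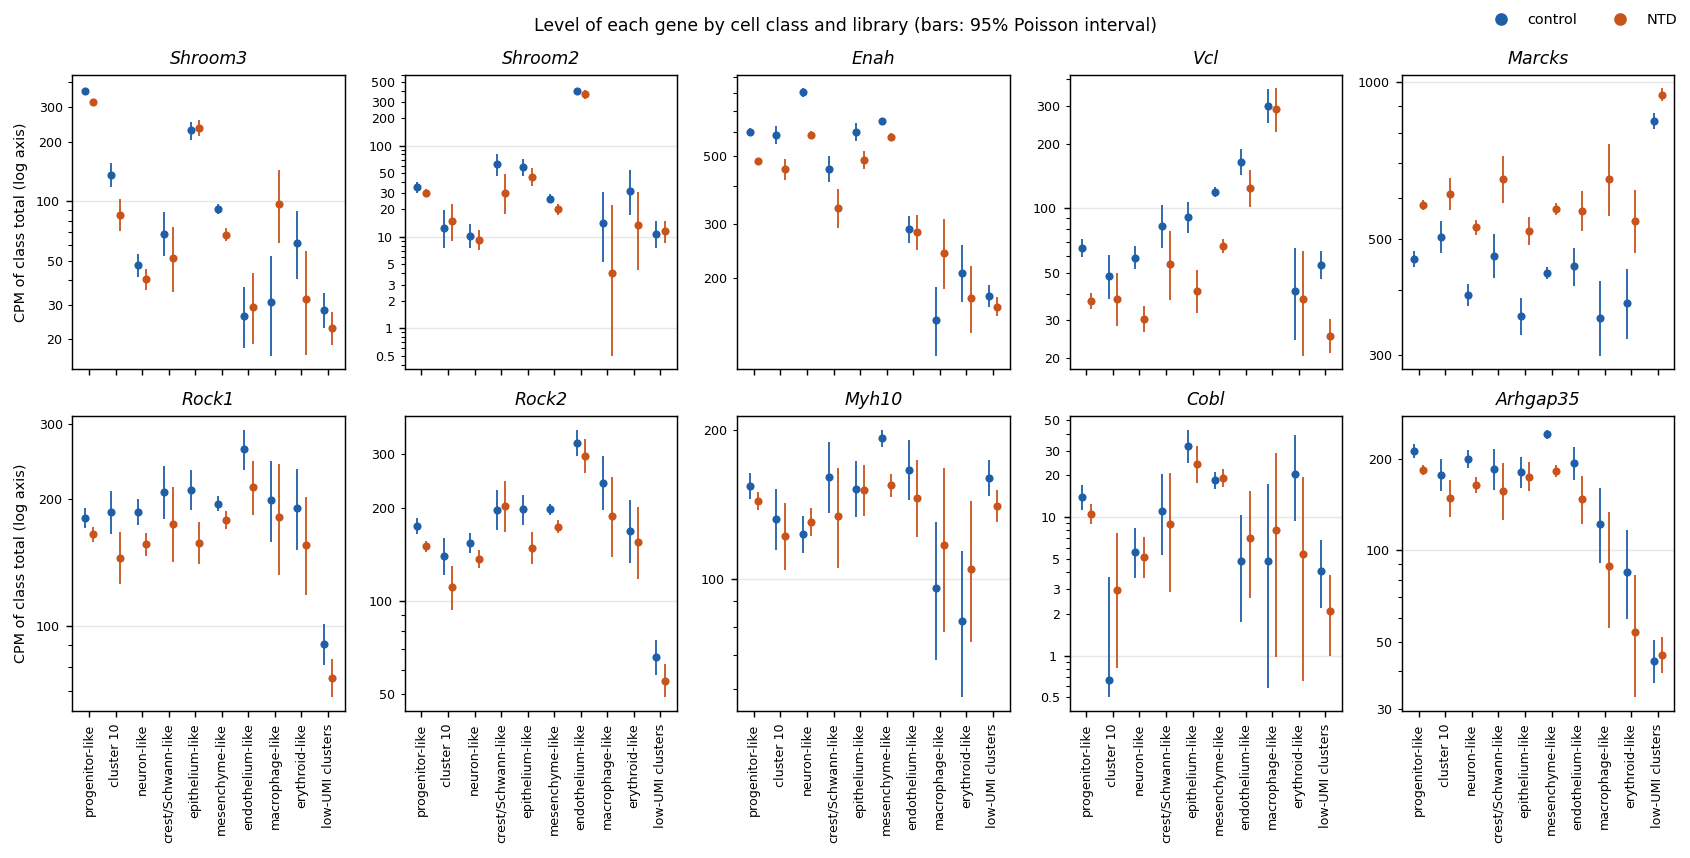
Level of each of the 10 genes (CPM of the class total, log axis, with 95% Poisson intervals drawn no lower than 0.5 CPM) in 8 named classes, in cluster 10 and in the low-UMI clusters 1 and 3, for the control (blue) and NTD (orange) libraries. Shroom3 is highest in progenitor-like cells and Shroom2 in endothelium-like cells in both libraries, whereas Marcks is highest in the low-UMI clusters.

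The kinases and the motor were more even than Shroom3 and Shroom2. Rock1 and Rock2, which phosphorylate myosin light chain and its phosphatase, were highest in endothelium-like cells, Rock1 at 262 and 213 CPM and Rock2 at 326 and 295 CPM in the control and NTD libraries. Progenitor-like cells were at 180.1 and 165 CPM for Rock1, and at 175 and 150.2 CPM for Rock2. Over the named classes Rock1 spanned 1.45-fold in the control and 1.37-fold in the NTD library, and no class differed from its neighbour in the order beyond the intervals. Rock2 spanned 2.11-fold and 2.16-fold, and its endothelium-like interval did not overlap that of the next class in either library. Myh10 (chr11:68691559-68816632, plus strand), the heavy chain of non-muscle myosin IIB, was highest in mesenchyme-like cells at 192 and 154 CPM, overlapping the next class in both libraries. Myh10 spanned 2.68-fold in the control and 1.47-fold in the NTD library. Its progenitor-like levels of 154 and 143 CPM were close to those of the low-UMI clusters, 159.7 and 140.3 CPM. Arhgap35 (chr7:16493719-16614993, minus strand) encodes a GTPase-activating protein. It was highest in mesenchyme-like cells of the control library (240.5 CPM), where progenitor-like cells were at 212 CPM, and highest in progenitor-like cells of the NTD library (184 CPM), where the interval overlapped that of mesenchyme-like cells at 182 CPM.

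The actin regulators again differed from one another. Enah (chr1:181896384-182019990, minus strand), which speeds the growth of actin filaments at their tips, was highest in neuron-like cells, at 805 and 583 CPM, against 596 and 482 CPM in progenitor-like cells. Neuron-like cells were thus higher by 0.43 log2 units (0.37 to 0.50) in control and by 0.28 (0.22 to 0.33) in NTD tissue. In the NTD library the interval of mesenchyme-like cells, at 576 CPM, overlapped that of neuron-like cells. Cobl (chr11:12236608-12464960, minus strand), an actin nucleator, was highest in epithelium-like cells at 32.7 and 24.3 CPM and reached 13.97 and 10.6 CPM in progenitor-like cells. The Cobl interval of epithelium-like cells overlapped that of the next named class in both libraries. Cluster 25 had the highest level of Enah, at 2014 CPM (1845 to 2193), and of Cobl, at 107 CPM (71.1 to 155), among the classes and unnamed clusters of the control library with at least 50 cells.

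Vcl was highest in macrophage or microglia-like cells, at 301 and 289.7 CPM, followed by endothelium-like cells at 165 and 125 CPM. Progenitor-like cells, at 65.2 and 37.0 CPM, and neuron-like cells, at 58.9 and 30.5 CPM, were near the low end. Marcks (chr10:37133375-37138920, minus strand), a substrate of protein kinase C that binds actin and the membrane, was the most even gene. Its levels over the named classes ran from 354 to 465 CPM in control and from 519 to 652 CPM in NTD tissue, so its highest class was 1.31-fold and 1.26-fold above its lowest. It was at 843 and 948 CPM in the low-UMI clusters, above the level of each named class of the same library.

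The main comparison asked whether neural progenitor-like cells of NTD embryos differed from control in these genes. With levels scaled to the class total, 2 of 10 genes, Vcl and Cobl, were lower in NTD cells past the fold limit, beside 33.1% of 16053 measured genes. In the other direction 1 of 10, Marcks, was higher, beside 12.8%. The share of lower genes was thus not above that of all genes. The median log2 ratio was -0.20 over the 10 genes and -0.18 over all measured genes. With trimmed mean (TMM) scaling, which sets the libraries level over the bulk of genes, the median of all genes moved to 0.02 and that of the 10 genes to -0.00037. Then 1 gene (Vcl) was lower, beside 17% of genes, and 1 (Marcks) was higher, beside 23.5%.

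Vcl and Marcks stood farthest from 0 in opposite directions. Vcl had 439 UMIs in the control and 540 in the NTD class, and its level was 1.76-fold higher in the control library (log2 ratio -0.82, -1.002 to -0.63; -0.62 with TMM). Marcks had 3084 and 8497 UMIs, with levels of 458 CPM (442 to 475) and 583 CPM (570.2 to 595). It was 1.27-fold higher in the NTD library (log2 ratio 0.35, 0.29 to 0.41; 0.55 with TMM). For neither gene did the intervals of the libraries overlap. Both directions also held relative to genes of like genomic span, whose median ratio was subtracted and left Vcl at -0.53 and Marcks at 0.35. Span was compared because Marcks covers 5.546 kb while the other 9 genes cover 92.9 to 282 kb.

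The constriction adaptors were close to the shift of all genes. Shroom3 went from 361 to 317 CPM, a log2 ratio of -0.18 (-0.26 to -0.11), which became 0.01 (-0.06 to 0.09) with TMM scaling and 0.14 when set against genes of like span. Shroom2 went from 34.8 to 30.4 CPM, and its log2 ratio of -0.20 had an interval that included 0 (-0.43 to 0.04; TMM 0.00). The direction of both genes therefore depended on the scaling. Xist, the X inactivation transcript, was at 202 CPM in the control and 890 CPM in the NTD progenitor-like cells, while the Y-linked genes Ddx3y, Eif2s3y, Kdm5d and Uty were each lower in the NTD library (Uty 174 and 79.0 CPM). The part of the embryos' sex in the value of the X-linked Shroom2 was not tested.

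The contractile genes showed the same small shift. Rock1 went from 180.1 to 165 CPM (log2 ratio -0.13, -0.23 to -0.03) and Rock2 from 175 to 150.2 CPM (-0.22, -0.32 to -0.12). Myh10, the motor they act on, went from 154 to 143 CPM, with an interval that included 0 (-0.10, -0.21 to 0.01). Arhgap35 went from 212 to 184 CPM (-0.20, -0.30 to -0.11). With TMM scaling these 4 ranged from -0.02 for Rock2 to 0.10 for Myh10, and relative to genes of like span from 0.03 to 0.18, so none kept its sign under each scaling.

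Enah and Cobl lay between. Enah was lower by 1.24-fold in the NTD library, from 596 CPM (578 to 615) to 482 CPM (471 to 493), with intervals that did not overlap. Its log2 ratio of -0.31 (-0.36 to -0.25) shrank to -0.11 with TMM scaling and to -0.02 against genes of like span. Cobl rested on 94 control and 154 NTD UMIs, and its log2 ratio of -0.41 had an interval close to 0 (-0.78 to -0.02; TMM -0.21, -0.58 to 0.18).

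**Figure D2:**
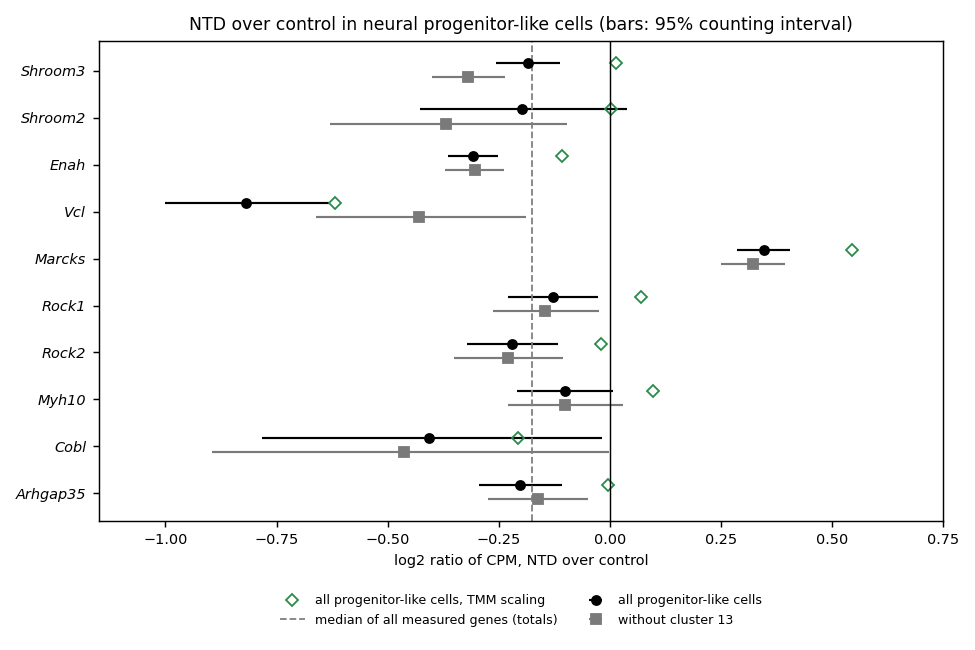
Log2 ratio of CPM, NTD over control, for the 10 genes in neural progenitor-like cells (black circles) and without cluster 13 (grey squares), with 95% counting intervals, and with TMM scaling (green diamonds). The dashed line is the median of all measured genes, -0.18. Vcl lies farthest below 0 and moves to -0.43 without cluster 13, while Marcks lies above 0 in each case.

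Cells were also compared at 1 depth, thinned to 1589 UMIs each. This left out 482 shallower control cells and 0 NTD cells of the class. The number lower was then 6 of 10 and the number higher 0, beside 35.9% and 14% of 14560 genes. A Shroom3 UMI was found in 38.3% of control (36.2 to 40.4%) and 33.2% of NTD progenitor-like cells (31.9 to 34.5%), and unthinned in 46.5% and 46.6%. Neuron-like cells, a class with little Shroom3, showed 5.37% and 5.63% at the same depth. A Vcl UMI was found in 9.59% and 5.42% of thinned progenitor-like cells, and in 14.2% and 9.97% unthinned. For Marcks the shares were 53.6% and 60.8% thinned, and 66.0% and 78.1% unthinned.

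The progenitor-like cells of the libraries did not come from the same positions along the body axis. Hox genes, which mark hindbrain and spinal cord, summed to 1190 CPM in the class of the control library, and hindbrain or spinal markers to 652 CPM in the control and 44.8 CPM in the NTD library. Cluster 13 was the Hox-rich cluster, with 955 control and 34 NTD cells. Inside the control library it had more Vcl than the other progenitor-like clusters, 90.1 CPM (78.9 to 102) against 49.7 CPM, a log2 difference of 0.86 (0.58 to 1.13). Shroom3 was lower there, at 303 against 397 CPM (-0.39, -0.51 to -0.26), and Shroom2 too, at 28.2 against 38.9 CPM (-0.46, -0.88 to -0.05). Of the 10 genes, 1 was higher and 2 were lower past the fold limit in that contrast, as were 12.9% and 16% of 13711 genes. The other 7 genes differed by -0.13 to 0.10. These differences lie within 1 library.

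Without cluster 13 the comparison covered 1674 control and 4963 NTD cells. The log2 ratio of Vcl moved from -0.82 to -0.43 (-0.66 to -0.19), from 49.7 to 37.0 CPM, and with TMM scaling to -0.22 (-0.45 to 0.02). That of Shroom3 moved from -0.18 to -0.32 (-0.40 to -0.24), from 397 to 318 CPM, and with TMM to -0.11 (-0.19 to -0.03), although relative to genes of like span it was 0.01. Marcks stayed at 0.32 (0.25 to 0.39), just under the fold limit. By that limit 3 genes, Shroom2, Vcl and Cobl, were lower and 0 higher, beside 33.4% and 11.9% of 15680 genes. On the scale of totals and with TMM, leaving out this 1 cluster thus brought Vcl nearer to 0 and moved Shroom3 away from it. Against genes of like span, Shroom3 instead went from 0.14 to 0.01.

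Cells without any Hox UMI were also set side by side, with 834 control and 4373 NTD cells. Vcl was at 46.0 and 36.2 CPM there, and its log2 ratio of -0.35 had an interval that included 0 (-0.68 to 0.01; TMM -0.16). Shroom3 was at 401 and 310.0 CPM (-0.37, -0.49 to -0.26; TMM -0.18, -0.30 to -0.07; like span -0.12), below 0 under each of these scalings. In all, 4 genes (Shroom3, Shroom2, Vcl and Cobl) were lower and 0 higher, beside 32.3% and 12.9% of 15025 genes. Marcks was at 480.5 and 587 CPM (0.29, 0.19 to 0.39). Hox genes also gave 298 and 38.1 CPM in telencephalon-like progenitors and 430.2 and 54.0 CPM in endothelium-like cells of the control and NTD libraries, so this split can follow free RNA and depth as well as position. Their part in it was not tested.

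Besides cluster 13, the class held 4 clusters, and both libraries had over 100 cells in each. Shroom3, Enah, Vcl, Rock1, Rock2 and Arhgap35 had log2 ratios below 0 in 4 of 4, but with TMM scaling in 3, 4, 4, 1, 2 and 1 of 4. Marcks was above 0 in 4 of 4 on both scales. Shroom3 was at 475 and 407 CPM in cluster 2 (led by forebrain genes such as Nkx2-1), at 347 and 238 CPM in cluster 4, at 445 and 298 CPM in cluster 12 (led by Pax5 and Cnpy1) and at 276 and 246 CPM in cluster 16 (led by Spon1 and Lmx1a). The gap was widest in clusters 12 and 4, with log2 ratios of -0.58 (-0.76 to -0.39) and -0.54 (-0.71 to -0.37). These were at -0.38 and -0.36 with TMM scaling, whereas clusters 2 and 16 came to -0.02 and 0.00. Whether the clusters differ from one another in this was not tested. Hox genes summed to 710 CPM in control and 53.2 CPM in NTD cells of cluster 16, so Hox levels still differed between the libraries there.

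Vcl was between 35.9 and 38.4 CPM over these clusters in the NTD library and between 42.7 and 54.5 CPM in the control library. The control library had fewer UMIs in each of them, and whether its wider range goes beyond counting error was not tested. The log2 ratios of Vcl ran from -0.60 to -0.21, and only cluster 4 had an interval wholly below 0 (-0.53, -0.95 to -0.07; TMM -0.35, -0.77 to 0.11). Marcks ran from 0.23 to 0.39 with 4 of 4 intervals above 0. Counting genes past the fold limit gave 1 lower and 1 higher in cluster 2, beside 33.5% and 14.9% of genes, and 5 lower and 0 higher in cluster 4, beside 31.5% and 14.7%. In cluster 12 it gave 2 and 2, beside 34.3% and 17%, and in cluster 16 it gave 3 and 0, beside 33.1% and 18.1%.

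**Figure D3:**
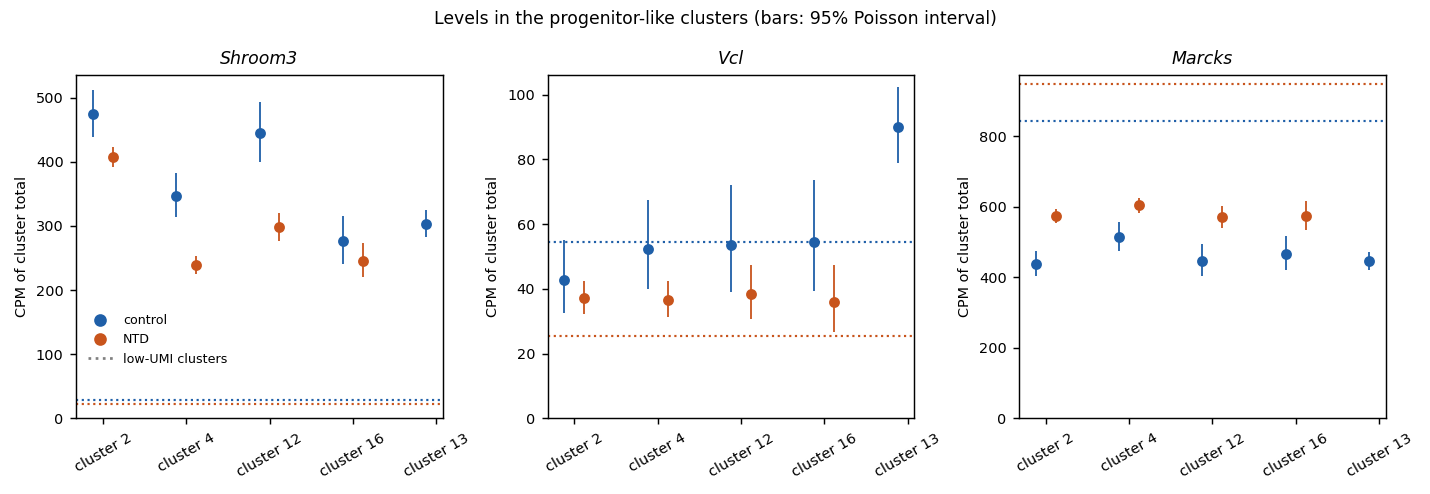
CPM of Shroom3, Vcl and Marcks in the 5 progenitor-like clusters of the control (blue) and NTD (orange) libraries, with 95% Poisson intervals, and dotted lines at the level of the low-UMI clusters of each library. Cluster 13 has too few NTD cells (34) for a level. Shroom3 is lower in the NTD library in clusters 2, 4, 12 and 16 and far above the dotted lines, and control Vcl is highest in cluster 13 at 90.1 CPM.

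Finer groups were made by clustering the progenitor-like cells again. Telencephalon-like progenitors numbered 280 in the control and 809 in the NTD library. There Shroom3 was at 463 and 438 CPM, with an interval that included 0 (-0.08, -0.26 to 0.10), and so was Vcl at 40.0 and 37.3 CPM (-0.12, -0.72 to 0.56). Marcks was at 427 and 572 CPM (0.42, 0.24 to 0.60) and Enah at 635 and 517 CPM (-0.30, -0.45 to -0.14). In floor plate-like progenitors (145 and 180 cells), the ventral midline of the tube, Shroom3 was at 349 and 325 CPM (-0.10, -0.44 to 0.24). Cobl there had 17 control and 9 NTD UMIs, 46.0 and 16.4 CPM, a log2 ratio of -1.46 (-2.84 to -0.25; TMM -1.29). Hox genes summed to 1034 CPM in the control and 85.5 CPM in the NTD cells of this floor plate-like group. The part of body axis position in its values was not tested. Midbrain-hindbrain boundary-like progenitors had too few control cells (80) for a ratio and are given as levels of Shroom3 only, 541 CPM (439 to 660) and 454 CPM (396 to 517), which overlap. Diencephalon or midbrain-like progenitors (53 and 243 cells), also with too few control cells for a ratio, were at 331 CPM (243 to 442) and 164 CPM (136 to 196), which do not. The levels of these small groups are scaled to totals only.

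Over the 9 sub-clusters that had 100 cells or more on both sides, Shroom3 had a log2 ratio below 0 in 9 of 9, from -0.69 to -0.10, with 6 intervals wholly below 0. With TMM scaling it was below 0 in 7 of 9. Marcks was above 0 in 9 of 9, from 0.11 to 0.55, with 6 intervals wholly above 0. Vcl was below 0 in 7 of 9 (5 of 9 with TMM), with 0 intervals wholly below 0, so within finer positions its difference was not detectable at this depth. The sub-clusters share the same 2 libraries and are not replicates.

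RNA of other cell types also differed between the libraries, in both directions. In progenitor-like cells the summed liver or yolk sac markers were at 432 CPM in the control and 54.2 CPM in the NTD library (8 markers, 1 at 0 in the NTD library), mesenchyme markers at 410 and 249 CPM (10 markers, none at 0), and skeletal muscle markers at 58.3 and 15.3 CPM (9 markers, 2 at 0 in the NTD library). Neuron markers summed to 1017 and 1343 CPM and neuroblast or intermediate progenitor markers to 229 and 338 CPM (10 markers each, none at 0), so these were higher in the NTD library, and neuron-like cells had less Shroom3 than progenitor-like cells. Macrophage markers, of the class richest in Vcl, were at 64.2 and 65.1 CPM (10 markers, none at 0). Erythroid markers, the largest of the sums, were at 10988 and 11462 CPM (10 markers, none at 0), and cardiac muscle markers at 126 and 159 CPM (8 markers, none at 0). Endothelium, epithelium, mural, crest or Schwann and visceral mesoderm markers were lower in the NTD library. Vcl was higher in mesenchyme-like cells than in progenitor-like cells by 0.87 log2 units (0.72 to 1.03) in the control library. Vcl also differed between the libraries inside the low-UMI clusters, at 54.6 and 25.5 CPM (-1.10, -1.44 to -0.76), where the median of all genes was -0.15. Marcks differed there by 0.17 (0.10 to 0.24), and Shroom3 by -0.31 with an interval that included 0 (-0.72 to 0.10). These pooled values set mostly different clusters side by side, since cluster 1 held 353 control and 2460 NTD cells and cluster 3 held 2409 and 57. In cluster 1 alone Vcl was at 52.1 and 25.4 CPM (-1.06, -1.70 to -0.31; TMM -0.79), Marcks at 773 and 946 CPM (0.29, 0.13 to 0.46) and Shroom3 at 23.7 and 23.1 CPM (-0.10, -0.97 to 1.06). The progenitor-like level of Vcl was 1.195-fold above the low-UMI level in the control and 1.45-fold in the NTD library, and that of Marcks was below it in both. The part of RNA from other cells in the Vcl, Marcks and Shroom3 values was not tested. Ribosomal protein genes took 7.73% of the control and 11.6% of the NTD UMIs of the class, and their part in the shift of all genes was not tested.

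Differences beyond progenitors were examined in the 7 named classes that had 100 cells or more on both sides. Marcks was higher in NTD cells past the fold limit in 7 of 7, with log2 ratios from 0.35 to 0.54 and 7 intervals above 0, and from 0.48 to 0.76 with TMM scaling. In the same classes between 12.8% (progenitor-like) and 19.9% (crest or Schwann-like) of measured genes were higher by that much. Counting lower and then higher members, mesenchyme-like cells had 4 and 1 (32.9% and 15.6% of all measured genes), neuron-like cells 2 and 1 (34.3% and 18.7%), epithelium-like cells 5 and 1 (37.3% and 17.6%) and endothelium-like cells 2 and 1 (33.6% and 18.8%). Crest or Schwann-like cells had 4 and 1 (37.1% and 19.9%), and erythroid-like cells 2 and 2 (45.6% and 19.2%). In neuron-like cells Marcks was at 391 and 527 CPM, in epithelium-like cells at 356 and 519 CPM and in erythroid-like cells at 377 and 542 CPM. Marcks was thus higher in classes unrelated to the neural tube wall as well, and its low-UMI level (843 and 948 CPM) exceeded each of these.

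Vcl was lower past the fold limit in 6 of 7 classes, where between 32.9% (mesenchyme-like) and 37.3% (epithelium-like) of genes were. The widest gap was in epithelium-like cells, at 91.1 and 41.1 CPM (-1.14, -1.57 to -0.74; TMM -0.95). Neuron-like cells had 58.9 and 30.5 CPM (-0.95, -1.22 to -0.68) and mesenchyme-like cells 119.6 and 66.9 CPM (-0.84, -0.98 to -0.70). Hox genes summed to 1189 CPM in control and 54.9 CPM in NTD neuron-like cells, and to 1203 and 139 CPM in crest or Schwann-like cells. The part of body axis position in the values of these classes was not tested. Different clusters held most of the mesenchyme-like cells of each library: cluster 0 had 773 control and 2566 NTD cells, cluster 6 had 1449 and 417, cluster 7 (led by Tbx15, Tbx4 and Tbx5) had 1435 and 47, and cluster 17 had 582 and 13. Within cluster 0 Vcl was at 88.8 and 57.0 CPM (-0.64, -0.90 to -0.38), and within cluster 6 at 153 and 109 CPM (-0.49, -0.73 to -0.26), so both gaps were narrower than that of the pooled class. Endothelium-like cells, rich in Vcl, had a smaller gap at 165 and 125 CPM (-0.40, -0.76 to -0.06; TMM -0.28, -0.64 to 0.06). Erythroid-like cells were the exception, with an interval of -1.25 to 0.96 around -0.12 that became 0.12 with TMM scaling. Macrophage or microglia-like cells, with 77 NTD cells, had overlapping levels of 301 CPM (251 to 359) and 289.7 CPM (227 to 365).

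**Figure D4:**
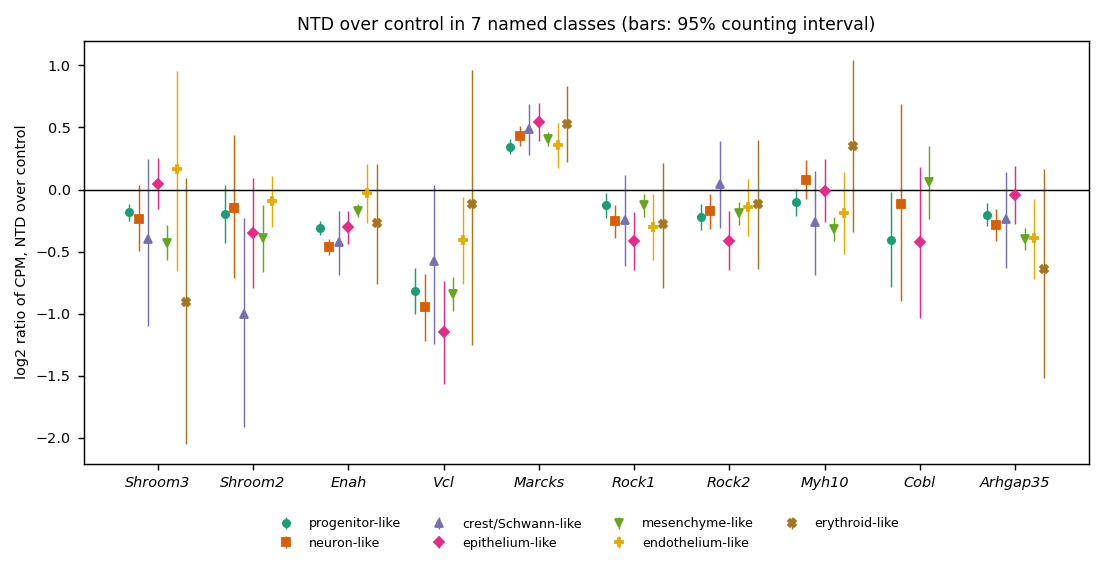
Log2 ratio of CPM, NTD over control, of the 10 genes in 7 named classes (points by class, bars 95% counting intervals, classes with fewer than 20 UMIs of a gene over both libraries left out). Marcks is above 0 in 7 of 7 classes, and Vcl is below 0 in 7 of 7 with 5 intervals that exclude 0.

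Enah was below 0 in 7 of 7 classes with 5 intervals wholly below 0, but past the fold limit in 2 of 7 and, with TMM scaling, in 0. It was lower in neuron-like cells by a log2 ratio of -0.46 (-0.53 to -0.40; TMM -0.28), from 805 to 583 CPM, and with TMM it was below 0 in 6 of 7. Rock1 and Arhgap35 were also below 0 in 7 of 7 classes on the scale of totals but in 5 and 6 of 7 with TMM. Shroom3 was below 0 in 5 of 7 classes. In mesenchyme-like cells it was at 91.4 and 67.9 CPM (-0.43, -0.57 to -0.29; TMM -0.26; like span -0.05), but the direction differed between clusters of that class. Within cluster 0 Shroom3 was at 71.6 and 56.7 CPM (-0.34, -0.61 to -0.05), and within cluster 6 at 86.6 and 113 CPM (0.39, 0.13 to 0.64). In epithelium-like cells, the other class rich in it, Shroom3 was at 229 and 236 CPM (0.05, -0.16 to 0.25). Cluster 14, richer in Shroom3 than progenitor-like cells, had 692 and 450.4 CPM (-0.62, -0.79 to -0.45; TMM -0.44; like span -0.27), and its Cobl was at 46.9 and 17.8 CPM (-1.40, -2.14 to -0.64; TMM -1.22). Cobl did not go 1 way throughout. It was at 19.2 and 11.5 CPM in mesenchyme-like cluster 0 (-0.75, -1.31 to -0.15) but at 32.7 and 52.8 CPM in cluster 6 (0.69, 0.30 to 1.08). Over 4 progenitor-like clusters the log2 ratio of Cobl ran from -0.91 in cluster 16 to 0.49 in cluster 12. Shroom2 in crest or Schwann-like cells had 56 and 17 UMIs and a log2 ratio of -1.01 (-1.91 to -0.23). In endothelium-like cells, where Shroom2 was richest, it was -0.10 (-0.31 to 0.11).

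The wider pathway was read in progenitor-like cells from 5 lists, beside the 33.1% of genes lower and 12.8% higher. With TMM scaling the shares over all measured genes were 17% lower and 23.5% higher, and TMM counts below stand beside these. Among the nearest relatives of the 10 genes, 10 of 11 were measured, and 3 were lower and 1 higher (median -0.07; with TMM 0 and 1, median 0.13). Marcksl1, the paralog of Marcks, was at 311 and 454 CPM, a log2 ratio of 0.54 (0.47 to 0.62; TMM 0.74). Shroom4 and Myh9, the heavy chain of non-muscle myosin IIA, were at -0.37 and -0.43 (TMM -0.17 and -0.23). Marcks and its paralog thus both lay above 0, and Shroom4 and Myh9 lay below.

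Of 19 myosin genes and their kinases and phosphatases, 7 were lower and 1 higher (median -0.22), but 1 lower and 5 higher with TMM (median -0.02). Among them was Limk2, a target of Rock kinases, at 68.5 and 41.9 CPM (-0.71, -0.89 to -0.53; TMM -0.51; like span -0.47). Mylk, myosin light chain kinase, was at -0.40, but at -0.20 with TMM and -0.08 against genes of like span.

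The 39 genes of actin filament assembly had 3 lower (7.69%) and 9 higher (23.1%), a median of -0.03, and 0 lower and 15 higher with TMM scaling (median 0.17). Relative to genes of like span their median was 0.12, beside 0.10 for the 10 genes. Tmsb4x, which holds actin monomers, was at 1807 and 2963 CPM (0.71, 0.68 to 0.74; like span 0.61). Pfn2, a profilin that feeds monomers to growing filaments, was at 56.6 and 106 CPM (0.90, 0.74 to 1.07), and Twf1, a monomer-binding protein, at 0.74. Of 28 junction and polarity genes 5 were lower and 0 higher (median -0.22), but 1 and 2 with TMM (median -0.016), with Pard3, Patj and Numb at -0.34, -0.33 and -0.34 (TMM -0.14, -0.13 and -0.14). Of 17 focal adhesion genes, the nearest in function to Vcl, 4 were lower and 1 higher (median -0.22; with TMM 2 and 1, median -0.02), with Actn4, an actin crosslinker, at 142 and 104 CPM (-0.45, -0.56 to -0.33; TMM -0.25) and Tln2 at -0.33 (TMM -0.13).

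The genes most like each of the 10 were sought over 24 profiles (classes and unnamed clusters by library, with at least 100 cells) among 12435 genes, by the correlation of log2(CPM + 1). Profiles of 1 library share its depth and RNA make-up, so these values are a description. Rock1 and Rock2 resembled each other with r = 0.94, and Arhgap35 was nearest to Enah among the 10 (r = 0.84). The nearest of all genes were Rragb for Shroom3 (r = 0.92), Colgalt2 for Shroom2 (0.89), Chic1 for Enah (0.95), Nab1 for Vcl (0.90) and Hdac2 for Marcks (0.95). They were Atf7 for Rock1 (0.97), 4932438A13Rik for Rock2 (0.96), Spin1 for Myh10 (0.86), Gnb1l for Cobl (0.83) and Cplane1 for Arhgap35 (0.96). Marcks was the least like gene for 8 of the other 9, with r down to -0.84 for Rock1.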

How the data were processed

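Single-cell RNA was read with 10x 3' v3 kits in 1 control and 1 NTD library. The authors deposited unnormalized UMI counts for each gene and barcode. The file headers name Cell Ranger 7.0.1, and STAR and mm10 are named in the submitters' processing notes. Annotation, cell calling and the counting of intronic reads, which bears most on long genes, are not given in the sources used.

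Barcodes needed 500 genes, 1000 UMIs and at most 10% mitochondrial UMIs, which removed 0. Scrublet (scanpy 1.11.5) set an automatic doublet threshold of 0.105 in the control library (17.9% called). In the NTD library its threshold of 0.617 called 0, so the control threshold was used for both (18.7% called in NTD). Cells were clustered together (2000 variable genes without the 10 genes and the pathway lists, 30 components, 15 neighbours, leidenalg 0.10.2 at resolution 1.0) and named X-like from at least 3 markers, at least 2 more than any other class had, provided that no other class had more markers among the cluster's top 10 genes by fold. Differences from other work may thus come from the rebuilt names. Kept cells had medians of 2164 and 2443 UMIs.

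Counts were summed per class and library and scaled to CPM of the sum. Log2 ratios of NTD over control had 0.5 counts added, and a gene was measured with at least 20 UMIs over both libraries. Exact 95% intervals were Poisson for CPM, conditional binomial for ratios and Clopper-Pearson for shares (scipy 1.17.1). Differences of at least 0.32 on the log2 scale were counted. Named beside the 10 genes were up to 3 genes a list, those of 20 CPM or more in a library whose log2 ratio was farthest from 0, and the most alike gene of each; Myl6, Myl9, Rnd3, Lima1, Fermt2 and Actg1 were named for their promoters. One gene that this rule names, and 1 of the pathway lists, are not reported here. The 10 genes, the lists and the comparisons were chosen with earlier results of these data known. Alternatives were TMM (edgeR 4.0.16) and median-of-ratios scaling, ratios relative to genes of like span (20 bins, GENCODE M21 spans of GRCm38 for 32235 of 32285 genes), other filters, clusterings and positions. Checked on simulated data of 15990 genes for the progenitor-like comparison, log2 ratios of -1.06 and 0.94 were recovered at -1.04 and 0.92, and 95.5% of intervals of unchanged genes held the truth. The simulated counts carried counting error only, so this checks the calculation and not variation between cells, embryos or libraries.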

Additional observations from a re-analysis of the deposited data

How the results depend on the processing

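In neural progenitor-like cells, 14 alternatives were tried for each of the 10 genes. None of the 140 values reversed a difference of the fold limit or more, 107 stayed within their error and 33 moved beyond it. Only Vcl, Cobl and Marcks had such a difference in the main analysis, so the other genes could not count as reversed. Shroom3, Shroom2, Rock1, Rock2, Myh10 and Arhgap35 changed sign under some alternatives. Dropping the minimum of UMIs could not move any value, because all 10 genes were already measured. Over the 11 alternatives scaled to totals, Vcl ranged from -0.88 to -0.35, Marcks from 0.29 to 0.41 and Shroom3 from -0.38 to -0.16. The number of genes higher, 1 in the main analysis, was 0 with doublets kept, with cells thinned to 1589 UMIs, in cells without Hox UMIs, without clusters under 100 cells in a library, and with clusters weighted equally; in each of these Marcks fell short of the limit. The number lower, 2 in the main analysis, was 6 after thinning, where 35.9% of all genes were lower, 4 in cells without Hox UMIs and with clusters weighted equally, and 1 with TMM, with median-of-ratios scaling and when set against genes of like span. After thinning, Shroom3, Rock2 and Enah only just passed the limit. The median of the 10 genes, -0.20 in the main analysis, was -0.33 after thinning, -0.00037 with TMM, -0.029 with median-of-ratios scaling and 0.10 against genes of like span. The cause was not tested. Leaving out the Hox-rich cluster, weighting clusters equally and the values within single mesenchyme-like clusters were added after the data were seen.

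No paired analysis was possible because each group had 1 library, and leaving out a library would leave its group empty. Cobl in progenitor-like cells and each gene in classes of under 100 cells are limited by counts. Position along the body axis, the tissues present and the sex of the embryos differ between the libraries and cannot be told apart from the group.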
